A study of Saccharomyces cerevisiae with 46 samples.

Results

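Chromosome II of budding yeast was followed through 46 whole-genome libraries as 814 bins of 1 kb, which are all the bins of this chromosome among 12165 in the files. The bins cover II 1 to 813184 in the R64 assembly, and they were split at the centromere into a left arm of 238 and a right arm of 575 bins, with 1 bin lying across the split. The samples were overnight cultures of the W303 background, a common laboratory strain of Saccharomyces cerevisiae, and the study asked about gains of particular chromosomes in cells that lack Bub3. Each of 20 lines, named from A1 to G4, had 1 non-evolved and 1 evolved sample, and lines C2, E3 and G4 also had an evolved_Bub3 sample. The wildtype, LY1, had 1 sample in each of the 3 states. The labels give no genotype or ploidy for the lines, do not say what sets evolved_Bub3 samples apart from evolved ones, and do not say how the lines are related, so p-values measure the spread between these lines.

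Bub3 is a protein of the spindle assembly checkpoint, which holds back the separation of sister chromosomes until every kinetochore is attached to the spindle. When that control is weak, a daughter cell can receive an extra copy of a chromosome, a state called aneuploidy, and all genes of that chromosome are then present in more copies than the rest. Chromosome II is a mid-sized yeast chromosome, and its gene table holds 416 of the 6002 nuclear protein-coding genes and 13 tRNA genes. Among its genes are SLI15, which encodes the yeast partner of the Aurora kinase Ipl1 in the chromosomal passenger complex, and CDC28, which encodes the main cyclin-dependent kinase.

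For each sample the level of chromosome II was its median bin value (log2 copy ratio) after subtracting a baseline, namely the median of the 16 nuclear chromosome medians. A level of 0 therefore means the same read depth as the typical chromosome, and gains were called from 0.3 upwards. The libraries held 1961866 to 3770032 reads, with a median of 126 to 464 reads in a bin of chromosome II. The standard error of a level over its bins was at most 0.0085, and it holds no spread between cultures. A culture is an average over its cells, so extra copies in some of the cells and fewer extra copies in every cell cannot be told apart.

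Chromosome II was gained in 16 of the 46 samples, and its levels fell into separate ranges with a wide gap between them. The 16 gained samples lay between 0.78 and 0.93 (median 0.89), which is 71.1% to 91.0% more reads per bin than the baseline. The other 30 samples lay between -0.02 and 0.25. Thus no sample had a level between 0.25, in F4 evolved, and 0.78, in E3 non-evolved, and moving the threshold from 0.3 to 0.5 changed no call. The wildtype samples stood at 0.00 (non-evolved), 0.01 (evolved) and 0.00 (evolved_Bub3).

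**Figure D1:**
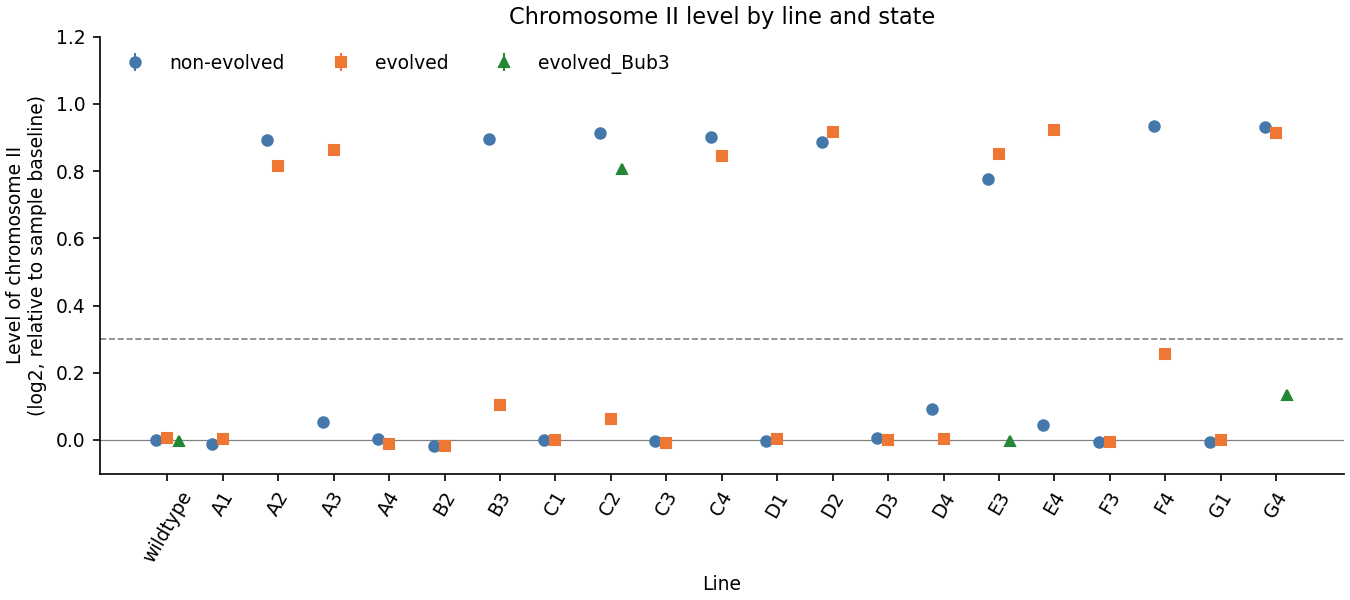
Level of chromosome II (log2, relative to the sample baseline) in every sample, by line on the x axis and by state in colour and symbol, with the standard error over bins as bars that are mostly smaller than the symbols. The dashed line is the gain threshold of 0.3. Gained samples form a band from 0.78 to 0.93, and 5 lines lie in that band in both states.

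A gain of chromosome II was called in 8 of 20 lines before evolution and in 7 of 20 after it. Over all 16 chromosomes the same rule called 7.19% of the chromosome levels before evolution and 7.81% after it. In the evolved_Bub3 samples it called 14.6% of the levels, and chromosome II in 1 of 3 samples. Chromosome II was described here with the knowledge, from earlier work on these files, that it is often gained.

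Lines A2, C4, D2, E3 and G4 carried the gain in both states. A2 had a level of 0.89 before and 0.81 after evolution, C4 had 0.90 and 0.85, and D2 had 0.89 and 0.92. E3 had 0.78 and 0.85, and G4 had 0.93 and 0.91. The states of these 5 lines lay close together, and the widest step, in E3 and A2, was 0.08 in opposite directions.

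Lines B3, C2 and F4 carried the gain in the non-evolved sample alone. Their levels were 0.89, 0.91 and 0.93 there and 0.10, 0.06 and 0.25 in the evolved sample. Lines A3 and E4 carried it in the evolved sample alone, with levels of 0.05 and 0.04 before and 0.86 and 0.92 after. In these 5 lines the levels before and after evolution were far apart, in both directions.

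The remaining 10 lines had no gain of chromosome II in either state. D4 stood at 0.09 before and 0.00 after evolution, and the other 9 lines (A1, A4, B2, C1, C3, D1, D3, G1, F3) stood at -0.02 to 0.01 over both states. The 10 lines with a gain in some state included at least 1 line of every letter from A to G.

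Across the 20 lines the level of chromosome II did not differ between the states beyond the spread between lines. It was 0.36 ± 0.44 (SD, n = 20) before and 0.33 ± 0.42 after evolution. The mean difference, evolved minus non-evolved, was -0.04 ± 0.41 and the level was higher after evolution in 7 lines (p = 0.718 in a paired sign-flip permutation test, two-sided, adjusted p = 0.973 over 16 chromosomes). The 95% interval of that difference, from inverting the test, was -0.23 to 0.155, so these lines do not show that the states are alike. The mean rested on single lines: it was 0.00127 without B3 and 0.00445 without C2, -0.00459 without F4, -0.0829 without A3 and -0.0866 without E4. Of the gain calls, 5 were shared by both states, 3 were present before evolution alone and 2 after it alone (p = 1, exact two-sided McNemar test, adjusted p = 1).

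The evolved_Bub3 samples differed from the evolved samples of the same line in both directions. In C2 the level of chromosome II was 0.91 non-evolved, 0.06 evolved and 0.81 evolved_Bub3. In E3 it was 0.78, 0.85 and 0.00, and in G4 it was 0.93, 0.91 and 0.13. All 3 lines had the gain in the non-evolved state. In the other states it was present in C2 evolved_Bub3, E3 evolved and G4 evolved. The differences were 0.74, -0.86 and -0.78, with a mean of -0.30 ± 0.90 (SD, n = 3; p = 0.5, exact two-sided sign-flip permutation test, adjusted p = 0.8). The smallest p that 3 pairs allow is 0.25. Without C2 the mean was -0.818, without E3 -0.0173 and without G4 -0.0559. The E3 and G4 evolved_Bub3 samples carried gains of I (1.01 and 1.06), III (1.02 and 1.07) and VIII (0.98 and 1.03), while chromosome II was the only gain of the C2 evolved_Bub3 sample. The G4 evolved_Bub3 library had the fewest reads in total, 1961866, and VI stood at 0.14 beside the 0.13 of chromosome II. A1 non-evolved had fewer nuclear reads, 1715771 against 1737991, with chromosome II at -0.01. A link between depth and these levels was not tested.

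Shares of reads showed the same samples on the same sides. Chromosome II held 6.75% to 6.77% of the nuclear reads in the wildtype samples and 10.8% to 12.03% in the gained samples. F4 evolved held 7.48% (95% Wilson interval 7.45% to 7.51%), G4 evolved_Bub3 6.73% (6.70% to 6.77%) and E3 evolved_Bub3 6.20% (6.17% to 6.23%). These intervals cover counting error only, and a share is also lowered by every other gained chromosome of the sample, as in A1 non-evolved with 5.85% and gains of XI and XII.

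All 15 gains of chromosome II in the non-evolved and evolved states were in samples with low coverage of BUB3. BUB3 (YOR026W) lies in the 2 bins at XV 379001 to 381000, and its level is the mean of these bins minus the median of XV. In the 15 gained samples of the non-evolved and evolved states it was -1.46 to -0.97 (median -1.28). The BUB3 level was -0.97 or below in both states of 11 lines, which gave 22 samples, and chromosome II was gained in 15 of them. It was -0.29 or above in both states of the other 9 lines, and chromosome II was gained in 0 of their 18 samples. This was not particular to chromosome II. In those 18 samples I, III, VIII and X also had no gain, with highest levels of 0.10, 0.09, 0.04 and 0.02. XI and XII did have gains there, with highest levels of 1.0 and 0.99. C2 evolved_Bub3 combined a gain of chromosome II with a BUB3 level of 0.76, and E3 and G4 evolved_Bub3 had BUB3 levels of 1.42 and 1.34 without the gain. The wildtype evolved_Bub3 sample also had a raised BUB3 level, 1.19, with chromosome II at -0.0032. BUB3 fills only part of its bins and its level was measured in the same libraries, so it was used as a description and no test was made on it.

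**Figure D2:**
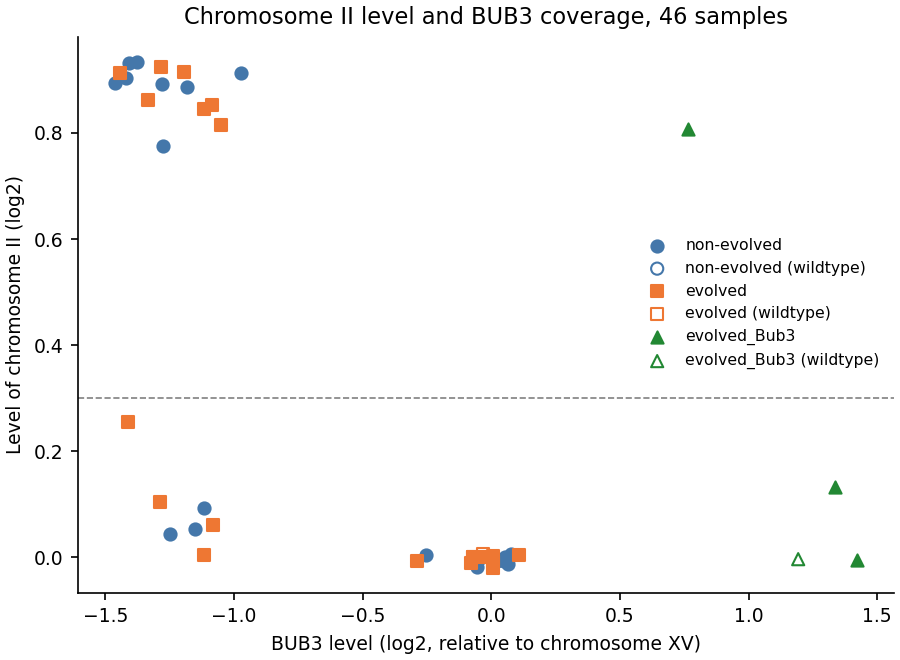
Level of chromosome II (log2) against the level of BUB3 (log2, relative to chromosome XV) in all 46 samples, with states in colour and symbol and the wildtype as open symbols. The dashed line is the gain threshold of 0.3. The 15 gained samples of the non-evolved and evolved states lie at BUB3 levels of -1.46 to -0.97, and the 1 gained evolved_Bub3 sample at 0.76.

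Small positive levels of chromosome II were found in samples of the same 11 lines that missed the threshold. The level was 0.00 in D4 evolved, 0.04 in E4 non-evolved and 0.05 in A3 non-evolved. It was 0.06 in C2 evolved, 0.09 in D4 non-evolved and 0.10 in B3 evolved. F4 evolved had the highest of these 7 values, 0.25 or 19.3% over the baseline. The 18 samples of the other 9 lines lay between -0.02 and 0.01, so 6 of the 7 values lay above that whole range.

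The same 7 samples showed small or large positive levels of a few other chromosomes. At a limit of 0.03, which was chosen after the values were seen, 6 of 7 samples lay above it for chromosome II, and 7 of 7 for I, III, VIII and X. For XIV it was 2 of 7 and for V 1 of 7, with highest levels of 0.04 and 0.04. The other 9 nuclear chromosomes were above the limit in 0 of the 7. In the 18 samples of the other 9 lines, VI reached 0.19, I reached 0.10 and III reached 0.09. These were all in B2 non-evolved and without a call. VIII reached 0.0354, in A1 evolved. Levels of I, III, VI and VIII above the limit were thus not particular to the 7 samples. Samples with chromosome II gained in the non-evolved and evolved states also lay above it for I, III and VIII. The exception was G4 non-evolved, at 0.02, 0.02 and 0. For I, VIII and X, all 18 samples of the other 9 lines stayed below the lowest of the 7. The values were 0.10 against 0.13, 0.0354 against 0.0402 and 0.0188 against 0.033.

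Each of these 7 samples carried a gain of another chromosome. A3 non-evolved had X at 0.86, E4 non-evolved had VIII at 0.81 and X at 0.91, and D4 non-evolved had I at 0.90 and VIII at 0.71. D4 evolved had III at 0.37, VIII at 0.63 and X at 0.91, and C2 evolved had I at 0.99 and III at 0.96. B3 evolved had I at 1.29 and X at 0.39, and F4 evolved had I at 0.89 and X at 0.94. X was thus gained in 5 of the 7 samples.

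Chromosome II was gained with few fixed partners. Of its 15 gains in the non-evolved and evolved states, 4 were the only called gain of the sample. These were C2 and C4 non-evolved and A2 and D2 evolved. Below the threshold, A2 evolved had III at 0.28 and VIII at 0.22. III stood at 0.16 in C4 non-evolved, 0.15 in D2 evolved and 0.07 in C2 non-evolved. III accompanied chromosome II in 7 samples and was gained without it in 2. X was gained in 6 samples and accompanied chromosome II in 1 of them, G4 non-evolved. I was gained with chromosome II in 3 and without it in 4 samples, and VIII in 2 and 3. XI and XII, gained in A1 and A4, were found with chromosome II in 0 samples. These are counts over samples in which both states of a line appear, and they were not tested.

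None of the 16 gains of chromosome II reached 0.95, and none lay close to the threshold of 0.3. Its gained levels were 0.78 to 0.93, those of I were 0.89 to 1.29 in 9 samples and those of III 0.37 to 1.07 in 11. VIII had gained levels of 0.63 to 1.03 in 7 samples and X of 0.39 to 0.94 in 6. Without the lowest one, B3 evolved, the gains of X lay between 0.86 and 0.94, a narrower range than that of II, and F4 evolved with II at 0.25 fell just under the threshold. All 4 gains of XI lay between 0.99 and 1.0 and both gains of XII at 0.98 and 0.99. The differences in height were not tested, because the samples were those that passed the gain threshold.

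**Figure D3:**
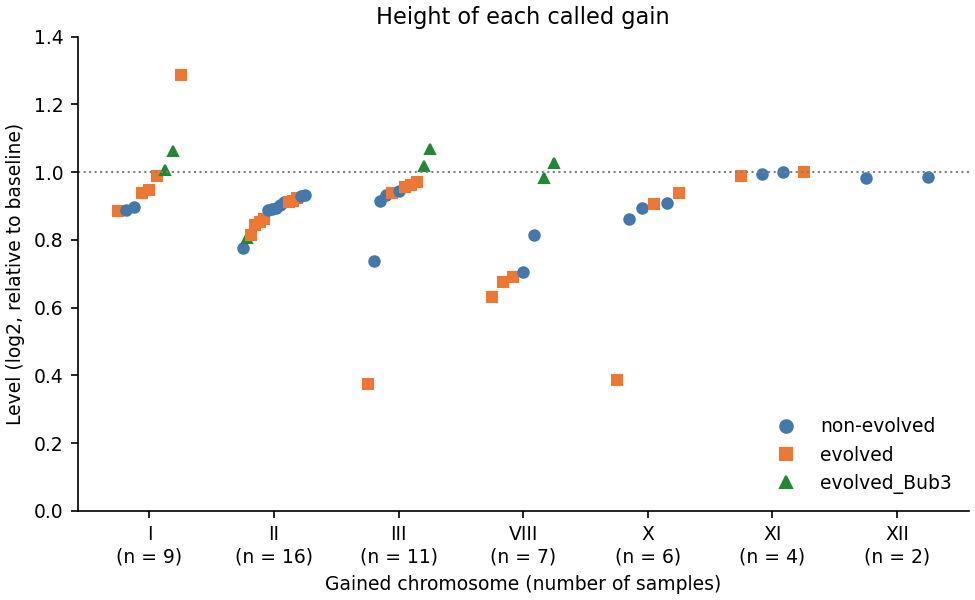
Level (log2, relative to the sample baseline) of every called gain, with 1 point per sample, grouped by chromosome on the x axis and coloured by state. The dotted line marks a level of 1. The 16 gains of chromosome II lie between 0.78 and 0.93, below the 4 gains of XI at 0.99 to 1.0.

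Within single samples, chromosome II was below III in 6 of the 7 samples in which both were gained and below I in 3 of 3, by 0.00 in D2 non-evolved. In E3 evolved, II stood at 0.85 beside I at 0.95 and III at 0.97, and in E3 non-evolved at 0.78 beside III at 0.93. In A2 non-evolved, II stood at 0.89 and III at 0.94, and in G4 evolved, II stood at 0.91, I at 0.94 and III at 0.96. F4 non-evolved went the other way, with II at 0.93 and III at 0.74. VIII was the lower one in A3 evolved, at 0.69 against 0.86 for II, and in C4 evolved, at 0.68 against 0.85.

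The extra reads covered the whole chromosome, with both arms at nearly the same level in every sample and a slightly lower left end. Here each bin was taken relative to its median over the 3 wildtype samples, which removes differences between bins that all samples share, and the arms were the medians of 237 and 567 bins that were not empty in most samples. The right arm minus the left arm was -0.02 to 0.03 (median 0.01) in the 16 gained samples and -0.05 to 0.05 in the other 30, which include the wildtype itself. F4 evolved, at the intermediate level, had 0.22 in the left and 0.25 in the right arm. Between the states this difference moved by -0.00268 ± 0.0307 (SD, n = 20; p = 0.706, sign-flip permutation test over pairs) and was higher after evolution in 8 lines.

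No sample had a step within chromosome II as high as the lowest gain of the whole chromosome, 0.78. The largest difference between the medians on the 2 sides of any cut with at least 20 bins on each side was 0.05 to 0.14 in the gained samples. In the other 30 samples it was at most 0.35, in B2 non-evolved, where the bins from position 788001 to the right end stood above the rest. In that library the outer 25 kb of 26 of the 30 ends of the other chromosomes were also more than 0.1 above their chromosome, with a median of 0.21 over those ends against 0.34 for the right end of II. Whether that pattern bears on the right end of II was not tested. The right arm of this sample as a whole stood 0.05 below the left, at -0.03 against 0.02. In windows of 50 kb, the first 16 windows of the gained samples lay between -0.14 and 0.08 of the level of II.

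The first window, II 1 to 50000, was below the level of the chromosome in all 16 gained samples, by a median of -0.06 (range -0.14 to -0.00). It was also below it in 7 of the 7 samples with low BUB3 coverage and no gain, with a median of -0.07 (range -0.11 to -0.00). In the 18 samples of the other lines it was below the level in 8, with a median of 0.01 (range -0.09 to 0.16), so the ranges overlapped. The largest step was an upward one within the first 60 kb in 12 of the 16 gained samples, in 6 of the 7 and in 5 of the 18. A cut near an end leaves few bins on its shorter side, and whether this bears on the place of the step was not tested. The first 60 kb include the first window, so the place of the step was not counted as a separate sign of a low left end. Low ends were also found on other chromosomes. In the outer 25 kb of C4 evolved, the left end of II stood at -0.14. The 30 ends of the other chromosomes had a median of -0.05 there, the lowest at -0.19. In E3 non-evolved the left end of II stood at -0.0959, below the lowest other end at -0.0937. In E3 evolved it stood at 0.03, above the median of the other ends at 0.02. In all other gained samples the left end of II lay below the median of the other ends. The low first window was described after the values were seen and was not tested.

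**Figure D4:**
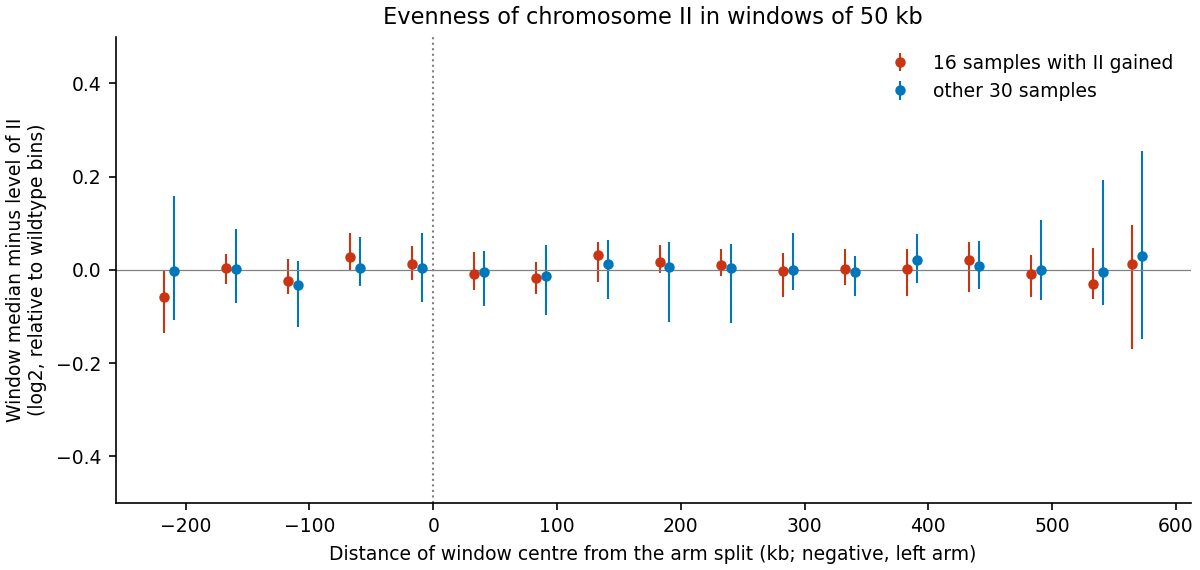
Median over bins in each window of 50 kb, minus the level of chromosome II in that sample and relative to the wildtype bins (log2), against the distance of the window from the arm split. Points are medians over the 16 gained and the other 30 samples, bars run from the lowest to the highest sample, and the last window holds 13 bins. The windows of the gained samples stay between -0.17 and 0.10 of the level.

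The scatter of bins around the level of chromosome II overlapped between samples of the lines with and without the gain, and bins of gained samples held more reads. The spread of bins around the level was a scaled median absolute deviation relative to the wildtype bins. In the 15 gained samples of the non-evolved and evolved states it was 0.1182 to 0.1455. In the 7 samples with low BUB3 coverage and no gain it was 0.1487 to 0.1797, so these 2 sets did not overlap. It was 0.13 to 0.19 in the 18 samples of the other lines, which overlapped both. The bins held a median of 315 to 464, 174 to 268 and 126 to 293 reads in these 3 sets. The wildtype samples, from which the reference for each bin was taken, had a spread of 0.04 to 0.08.

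Listed genes of mitosis, replication and protein quality control on chromosome II had the level of the chromosome, as did most of its bins. Of 216 listed genes in 13 lists, 30 lie on chromosome II, 12 on the left and 18 on the right arm, and all 30 had a median within 0.3 of the level of II over the 46 samples, against 95.7% of all bins of the chromosome. Their levels relative to chromosome II had medians of -0.08, for the protein phosphatase gene PTC3, to 0.10, for the histone H4 gene HHF1. The lists were chosen with earlier results of these files known, and no test was made on a list.

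Of the 5 genes of the chromosomal passenger complex and shugoshin, which help to correct faulty attachments to the spindle, SLI15 lies on chromosome II. SLI15 (YBR156C, II 551104 to 553200) covers 3 bins, with a level of 0.72 to 0.95 relative to the baseline in the 16 gained samples and -0.31 to 0.30 in the other 30 samples. Its median relative to chromosome II was -0.05 in the gained and -0.06 in the other samples, so it carried no separate gain. Its mean level was 0.29 ± 0.46 (SD, n = 20) before and 0.26 ± 0.46 after evolution.

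Of the 41 kinetochore genes, 3 lie on the right arm of chromosome II. DAD3, a small subunit of the Dam1 ring that couples kinetochores to microtubules, stood at 0.46 ± 0.46 (SD, n = 20) before and 0.37 ± 0.43 after evolution. AME1, of the essential inner kinetochore, stood at 0.35 ± 0.43 and 0.31 ± 0.41, and IML3, of the non-essential inner kinetochore, at 0.42 ± 0.45 and 0.33 ± 0.47. None of the 6 listed checkpoint genes lies on chromosome II. The SD of each of these genes over the lines was close to that of the chromosome level, 0.44 and 0.42.

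Other listed genes on this chromosome act in the cell cycle and on the spindle. CDC28 (II 560078 to 560974) lies in a single bin with levels of 0.71 to 1.04 in the gained samples and -0.44 to 0.31 in the others. CKS1, which encodes a small protein that binds this kinase, had a median of 0.03 relative to chromosome II. CDC27, of the anaphase-promoting complex, stood at 0.77 to 0.97 in the gained and at -0.15 to 0.31 in the other samples.

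The spindle list has the kinesin gene KIP1, the microtubule-binding STU1 and SHE1 on the left arm, with medians of -0.02, -0.05 and 0.00 relative to chromosome II. The condensin gene BRN1 stood at 0.00, and SHP1 and GIP1, which encode proteins that act with the phosphatase Glc7, stood at 0.04 and -0.05. The 6 replication genes were MCM2, MCM7, ORC2, POL12, POL30 and RFC5, with medians of -0.05 to 0.04. Among genes of protein quality control, SSE2 stood at 0.02, HSP26 at -0.03, UBC4 at 0.03 and PRE7 at 0.04. The marker gene LYS2, of lysine synthesis, stood at 0.04, with 0.74 to 1.03 relative to the baseline in gained samples.

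Genes measured by a single bin varied most, and the histone genes are such genes. HHF1 and HHT1, the histone H4 and H3 genes next to each other on the right arm, ranged from -0.20 to 0.48 and from -0.40 to 0.28 relative to chromosome II over the 46 samples. HTA2 and HTB2, the H2A and H2B genes close to the arm split, ranged from -0.35 to 0.20 and from -0.37 to 0.15. Each histone type has a second gene copy elsewhere in the yeast genome, and no source used here says how reads were shared between the copies.

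Bins with little coverage marked the repeated sequences of chromosome II in all samples, whatever its level. Of the 814 bins, 779 had a median within 0.3 of the level of II. There were 9 bins without reads in more than 50% of the samples, in 3 stretches. The longest, of 7 bins at II 259001 to 266000, holds YBR012W-B, the Gag and Pol reading frame of a Ty retrotransposon, and had no reads in 45 or 46 of the 46 samples. The others were 1 bin at II 3001 to 4000 in YBL111C near the left end and 1 bin at II 811001 to 812000 over COS2 near the right end, empty in 45 and 42 samples.

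A further 18 bins had reads but a median of -1 or lower relative to chromosome II. They lay in the other Ty reading frames, YBL100W-B and YBL005W-B, at the ends, and in genes with a close copy elsewhere in the genome, namely RPL4A (-1.21), TEF2 (-1.50) and MAL32 (-1.24). The bin with the lowest median was II 223001 to 224000 in YBL005W-B, at -5.94 with a median of 3.5 reads. The last bin, II 813001 to 813184, holds only the remainder of the chromosome and stood at -2.67. The strain is W303 and the bins are those of S288C, so low values shared by all samples, the wildtype included, do not set these lines apart.

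**Figure D5:**
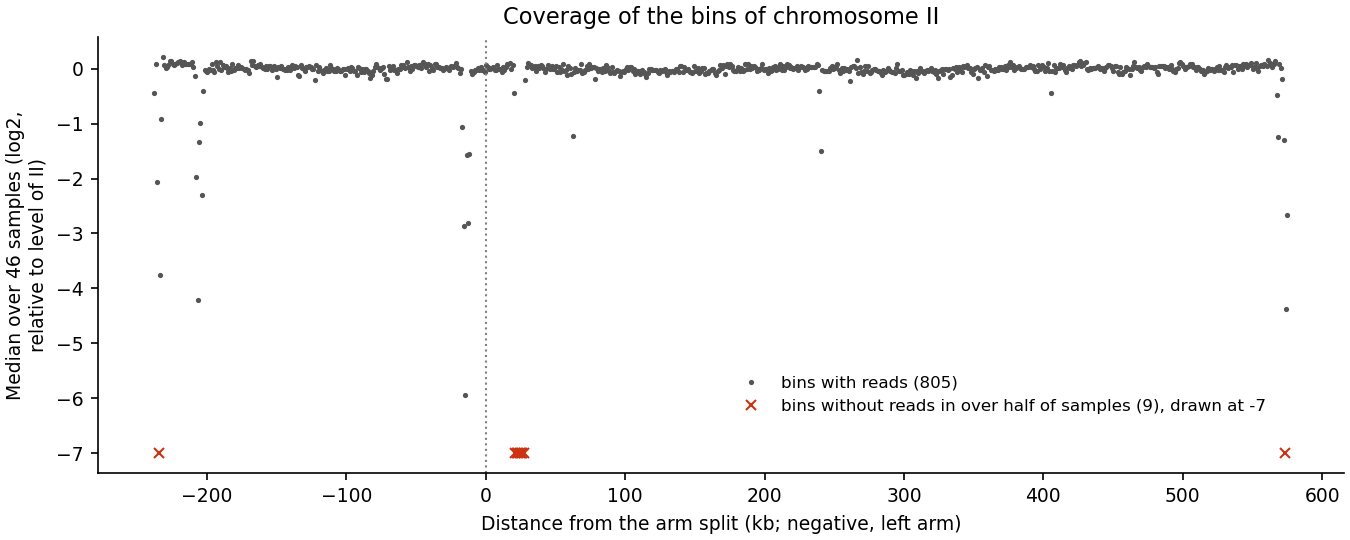
Median over the 46 samples of each bin's log2 ratio minus the level of chromosome II in that sample, against the distance of the bin from the arm split. Crosses at -7 are the 9 bins without reads in most samples. Apart from the Ty elements, the ends and a few genes with close copies, the bins lie near 0.

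The bins that varied most between samples were again those of repeats. Among 801 bins with reads in every sample and a median of at least 20 reads, the median SD over samples was 0.12, against 0.09 from counting alone. The 10 largest SDs ran from 0.20 to 0.36. They belonged to 3 bins of YBL005W-B, 3 of YBL100W-B, both ends of the chromosome with COS2, and TEF2. The highest, at II 222001 to 223000, ranged from -3.82 to -2.22 relative to chromosome II with a median of 35 reads, where counting alone gives an SD of 0.25.

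No single bin of chromosome II differed between the states once the level of the chromosome was taken out. In limma, with the line as block and adjustment over 11810 nuclear bins, 0 of 805 tested bins of chromosome II had an adjusted p under 0.05 (lowest adjusted p = 0.988), against 0.00847% of all nuclear bins, which is 1 bin on another chromosome. At an unadjusted p under 0.05 there were 35 of the 805 bins or 4.35%, against 4.74% of all nuclear bins. The fitted changes were -0.21 to 0.215 with a median standard error of 0.04. The bin with the lowest p, II 130001 to 131000 in EDE1, an endocytosis gene, had a fitted difference of 0.13 ± 0.04 (SE; adjusted p = 0.988 in limma).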

How the data were processed

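The authors' deposited files list log2 copy ratios for bins of 1 kb, with a GATK copy-number read group in their headers. The submitters' processing notes name GATK, Picard 2.27.1, BWA 0.7.17 and Trimmomatic 0.39. Their order and settings, any GC correction and the treatment of duplicates were not given in the sources used here. Contigs are those of R64, and genes came from an R64 table, in which all 216 listed genes matched.

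Ratios times the median read number of the sample's bins were whole reads (tolerance 0.01 reads) for at least 99.99% of covered bins, and depths are these recovered reads. The level, gain threshold and arm split are given in the report. Tests were two-sided paired sign-flip permutation tests (100000 resamples; exact for 3 pairs), exact McNemar tests with Benjamini-Hochberg adjustment over 16 chromosomes, and limma 3.58.1 (R 4.3.3) across all nuclear bins with the line as a paired block. Bins without reads in over 50% of samples were left out of limma and of the arms, and other empty bins got 0.5 reads in limma. The methods were tested on simulated data.

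Pairing came from the line code in the titles. Deviations of bins from their group means correlated between the states of a line by -0.005 to 0.087 over 11726 bins, with 0 of 20 lines over 0.1. No 2 samples of a group agreed within sampling noise (chi-square per degree of freedom 1.48 or more over the bins of chromosome II). The members, lists and tests were chosen with earlier results of these data known. The text names all listed genes on chromosome II, or gives their range, and by fixed rules the bins with the largest SD, the empty stretches and the samples with a level of at least 0.1. Called bins were to be named too, and there were 0. The bins with a low median, that of EDE1 and the chromosomes set beside chromosome II were named after their values were seen. No genome sequence was used here.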

Additional observations from a re-analysis of the deposited data

How the results depend on the processing

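Under the alternative settings 49 values were recomputed. Of these, 47 counted as unchanged and 2 changed direction. For differences, unchanged means the same direction and the same side of 0.05 for p or adjusted p. For single bins it means the same number of called bins. For counts of gains it allows small moves, such as 8 evolved lines in place of 7 at a threshold of 0.2. The evolved_Bub3 comparison, with at most 3 pairs, could not fall under 0.05 in any setting. Leaving out each line in turn moved the mean evolved minus non-evolved level of chromosome II (-0.0383) between -0.0866 and 0.00445 (adjusted p = 0.782 to 0.997, paired sign-flip permutation test). The sign turned without B3 (0.00127) and without C2 (0.00445). Leaving out each of the 3 lines moved the evolved_Bub3 minus evolved difference (-0.297) between -0.818 and -0.0173, with no adjusted p under 0.8. With 2 pairs left, the sign-flip permutation test cannot give a p below 0.5, so these p-values say nothing about stability. A baseline from all nuclear bins, mean copy ratios, and the chromosome without its outer 20 kb and empty bins gave -0.0394 to -0.0339 for the first difference and -0.306 to -0.298 for the second. With no replicate block, that is unpaired, the first difference stayed at -0.0383 (adjusted p = 0.961, permutation test) and the arm difference at -0.00268 (p = 0.693). The lines with a gain numbered 8 in both states at a threshold of 0.2, where F4 evolved was added, and 8 and 7 at 0.5. The 6 other settings of limma called 0 bins of chromosome II each, with 1 to 36 bins at an unadjusted p under 0.05. The GC correction was not run because no genome was used here. The median standard error of a bin's change between the states was 0.0389. The standard error of a sample's level, at most 0.0085, is taken over bins and holds no spread between lines, so it cannot be set against that value. The change in level between the states had an SD of 0.412 over the 20 lines.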
